A study of Mus musculus with 19 samples.

Results

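The natriuretic peptide system was followed across the mouse ventricle through 8 genes, taken by symbol from the 55536 genes of the count files. They are the peptide genes Nppa and Nppb, the receptor genes Npr1, Npr2 and Npr3, and the protease genes Corin, Furin and Mme. All 8 passed the filter on low counts at both times, on which 12597 genes were tested at 16 weeks and 15173 at 8 weeks.

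Ventricular RNA depleted of ribosomal RNA was sequenced in wild-type animals (WT) and in animals with an induced, heart-specific loss of Mpc1 in adult life (KO). The product of Mpc1 is a subunit of the carrier that lets pyruvate into mitochondria. Libraries came from 8 weeks after induction (WT-8 with 5 libraries, KO-8 with 4) and from 16 weeks after it (WT-16 and KO-16 with 5 each). The labels name no Cre driver, inducing agent or age, and do not say what the WT mice carried or received. Nor do they tie libraries to animals, and the p-values therefore reflect only the spread between libraries, which may be technical.

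Nppa and Nppb encode the precursors of atrial and B-type natriuretic peptide, hormones of heart muscle cells that promote salt and water loss and relax blood vessels. In the adult heart most Nppa RNA comes from the atria, and ventricular muscle is known to raise both genes under load or in failure. The peptides act through NPR-A, a guanylyl cyclase encoded by Npr1 that makes cyclic GMP. NPR-B, encoded by Npr2, is the related cyclase that prefers the C-type peptide, while NPR-C, encoded by Npr3, has no cyclase domain and takes peptides up for breakdown. Corin cuts the precursor of the atrial peptide at the cell surface, furin cuts that of the B-type peptide in the secretory pathway, and neprilysin, encoded by Mme, degrades the mature peptides.

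Both peptide genes lie on the plus strand of chromosome 4 (GRCm38), Nppb at 147985788 to 147987205 and Nppa at 148000722 to 148002079, with 13516 bases between them. Their promoters are shown because these neighbours were higher together in KO-16, while in KO-8 only the rise of Nppa passed the test. The 250 bases before each RefSeq start (GRCm38.p6) are at chr4:148000472-148000721 for Nppa and at chr4:147985650-147985899 for Nppb. The Ensembl 96 model of Nppb used for counting starts at 147985788, inside the second window. Capitals mark GATAA (the core bound by GATA factors), AAGTG (by NKX2-5), CATTCC (by TEAD factors) and TATAAAA, on either strand.
Nppa: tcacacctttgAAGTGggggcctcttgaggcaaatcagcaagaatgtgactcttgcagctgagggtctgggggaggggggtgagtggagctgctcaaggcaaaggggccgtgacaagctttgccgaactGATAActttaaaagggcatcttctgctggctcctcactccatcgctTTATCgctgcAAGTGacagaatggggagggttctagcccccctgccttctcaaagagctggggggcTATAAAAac
Nppb: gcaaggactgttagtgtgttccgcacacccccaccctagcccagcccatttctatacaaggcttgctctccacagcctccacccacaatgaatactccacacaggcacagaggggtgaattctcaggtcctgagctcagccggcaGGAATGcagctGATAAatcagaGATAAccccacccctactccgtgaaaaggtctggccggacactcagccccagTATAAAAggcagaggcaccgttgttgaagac
The Nppa window held GATAA 2 times, with one copy read as TTATC on the shown strand, and AAGTG 2 times. The Nppb window held GATAA 2 times and CATTCC 1 time, shown as GGAATG, and no AAGTG. Each had TATAAAA 1 time, and no 2 of the marked words overlapped. Among 32851 promoter windows of the same length, 22.6% held GATAA, 40.7% AAGTG, 12.6% CATTCC and 4.98% TATAAAA. These are letter matches, and binding was not measured here.

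The libraries held 8.63 to 27.5 M (mega) counts. Mpc1 was below every WT library in all KO libraries of its time, with log2 fold changes of -2.21 at 16 weeks (SE 0.25) and -2.77 at 8 weeks (SE 0.10, edgeR's quasi-likelihood test, adjusted p = 0.00159 and 6.72e-10). The 18S ribosomal gene CT010467.1 made up 1.71% to 39.1% of each 16-week library and at most 0.067% of each 8-week one. Sex was read from counts of Xist against those of Y-linked genes. By this reading the only male libraries were WT-16 replicate 5 and KO-16 replicate 4. One library stood apart from the others of its group: replicate 1 of WT-8 had 1313 CPM (counts scaled by library total and TMM factor) of Esr1, estrogen receptor alpha. The other WT libraries had 0 to 2.27 CPM of it and the KO libraries 182 to 1658. The Mpc1 level of that library, 82.3 CPM, was the highest of WT-8. In all other libraries high Esr1 and low Mpc1 went together, so their parts in the 16-week differences below cannot be told apart. At 8 weeks that 1 WT library alone had high Esr1 without low Mpc1. Its 35.2 CPM of Nppa lay within the WT-8 range, and its 126 CPM of Corin was the lowest of WT-8. The parts of Esr1 and Mpc1 in the 8-week differences were not tested.

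Nppa was higher in KO at both times. In WT-8 its levels were 35.2, 29.55, 46.55, 23.6 and 23.03 CPM (replicates 1 to 5), and in KO-8 they were 149.8, 109, 207 and 117 CPM. Every KO-8 library lay above every WT-8 library. The means were 31.6 ± 9.73 CPM (SD, n = 5) and 145.7 ± 44.35 CPM (n = 4), a log2 fold change of 2.22 (SE 0.21, 4.66-fold, edgeR's quasi-likelihood test with Benjamini-Hochberg adjustment over all genes, adjusted p = 4.145e-05). Nppa was the 1 of the 8 genes that passed at 8 weeks, where 8.21% of all genes tested did (4.3% higher and 3.91% lower in KO). It was also the 1 whose groups did not overlap, as in 10.9% of all genes (5.01% with KO higher and 5.85% with KO lower). It passed with each 8-week library left out, among them replicate 1 of WT-8 (log2 fold change 2.26, adjusted p = 0.000157). In a fit to all 19 libraries, where the wider 16-week spread enters, the same difference of 2.21 had an SE of 0.65 and did not pass (adjusted p = 0.244).

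At 16 weeks Nppa reached higher levels, with a much wider spread between libraries. The WT-16 levels were 43.96, 26, 329, 112 and 44.1 CPM. In KO-16 they were 264, 1813, 2349, 1374 and 207 CPM. Replicates 2, 3 and 4 of KO-16 exceeded all WT-16 libraries, while replicates 1 and 5 lay under WT-16 replicate 3 and over the other 4. The means were 111 ± 126 and 1201 ± 947 CPM (SD, n = 5 each), which gave a log2 fold change of 3.42 (SE 0.80, 10.7-fold, edgeR's quasi-likelihood test, adjusted p = 0.0407). Without WT-16 replicate 3 the log2 fold change was 4.41. The call was lost when any of WT-16 replicates 1, 2, 4 or 5 or KO-16 replicates 2, 3 or 4 was left out (log2 fold changes 3.03 to 3.42, adjusted p from 0.0872 to 0.107).

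Nppb was higher in KO-16 and did not pass the test at 8 weeks. The WT-16 levels were 11.1, 22.4, 37.1, 13.97 and 33.3 CPM, and those of KO-16 were 33.8, 344.5, 338, 193 and 26.9 CPM. Replicates 2, 3 and 4 of KO-16 again stood above all WT-16 libraries, and replicates 1 and 5 fell within the WT-16 range. The means were 23.6 ± 11.5 and 187 ± 155.5 CPM (SD, n = 5 each), which gave a log2 fold change of 2.98 (SE 0.65, 7.87-fold, edgeR's quasi-likelihood test, adjusted p = 0.0345). The call was lost without any 1 of the same 7 libraries as for Nppa (log2 fold changes 2.63 to 3.11, adjusted p from 0.0722 to 0.102) and with limma-voom (2.32, adjusted p = 0.0903).

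At 8 weeks Nppb had 87.7, 97.2, 143, 139 and 72.2 CPM in WT-8 and 118, 106, 155.5 and 128 CPM in KO-8. All but the highest KO-8 library lay within the WT-8 range. The means were 108 ± 31.6 CPM (n = 5) and 127 ± 20.9 CPM (n = 4), with a log2 fold change of 0.25 (SE 0.17, edgeR's quasi-likelihood test, adjusted p = 0.426).

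Whether the knockout effect differed between the times was tested directly in all 19 libraries. The effect at 16 weeks minus that at 8 weeks was 1.20 for Nppa on the log2 scale (SE 0.88, edgeR's quasi-likelihood test, adjusted p = 0.556) and 2.72 for Nppb (SE 0.75, adjusted p = 0.271). No member and 0% of the 15503 genes passed this test, although 2 members (Nppb and Mme) and 2000 genes had an unadjusted p under 0.05. DESeq2 called 15 genes with a more positive and 8 with a more negative effect at 16 weeks, with 0 members among them. limma-voom called 0 genes, and with quality weights it called Nppb and Mme among 224 more positive and 303 more negative ones. The difference for Nppb passed in edgeR without KO-16 replicate 1 (2.98, adjusted p = 0.0143) or replicate 5 (2.99, adjusted p = 0.039).

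**Figure D1:**
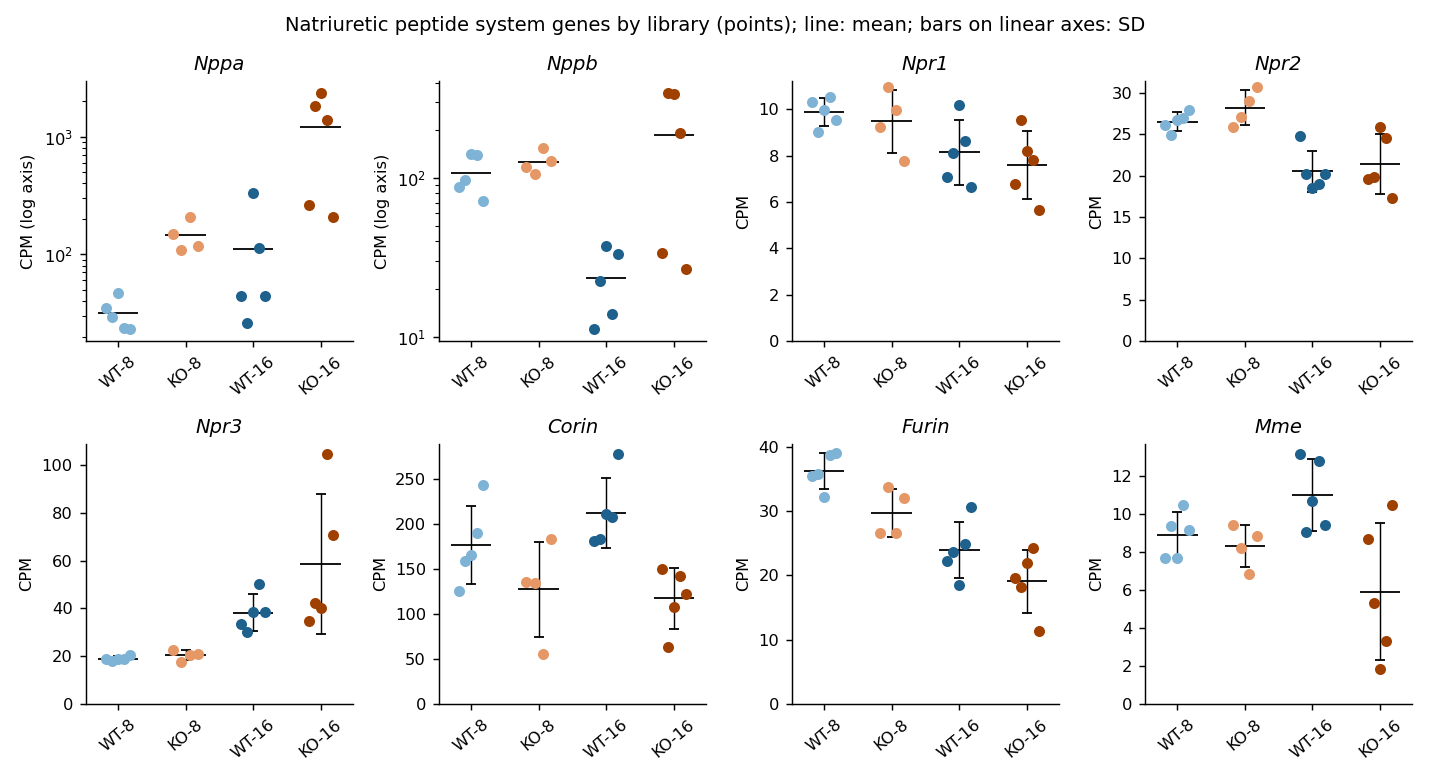
CPM of the 8 genes in each library (points) by group. The y axis is logarithmic for Nppa and Nppb and starts at 0 for the other genes. Horizontal lines are means, and vertical bars on the linear axes are the SD. Nppa runs from 207 to 2349 CPM in KO-16, and Corin is the gene whose KO-16 libraries all lie under WT-16.

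The balance between the peptide RNAs also differed between groups. On the scale of CPM per kilobase of exon, Nppa over Nppb was 0.153 to 0.362 in WT-8 and 0.822 to 1.20 in KO-8, so that Nppb was the more abundant RNA in every WT-8 library. The WT-16 ratios ran from 1.05 to 8.00, and the KO-16 ratios from 4.75 to 7.05. The WT groups themselves differed in Nppb, with 72.2 to 143 CPM at 8 weeks and 11.1 to 37.1 CPM at 16 weeks. Time after induction cannot be told apart from the higher 18S content of the 16-week libraries, which also have 2 files a sample where the 8-week ones have 1, so no test was made between the times in WT.

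Atrial muscle is rich in Nppa RNA, so atrial markers were read in the same libraries. Myl7 encodes the atrial myosin light chain. The WT-16 libraries had 0, 0, 87.7, 15.6 and 2.53 CPM of it, and the KO-16 libraries 34.2, 0.558, 0.617, 48.1 and 13.6 CPM. It had 0.064 to 2.89 CPM at 8 weeks. Both WT-16 libraries with most Myl7, replicates 3 and 4, were also those with most Nppa. In KO-16 the order differed: replicates 2 and 3, with the highest Nppa and Nppb, had Myl7 under 1 CPM and no count of Sln, the sarcolipin gene of atrial muscle. Another atrial marker, Dkk3, was not low in these replicates. It had 8.76, 11.5, 20.9, 24.0 and 16.3 CPM in KO-16 replicates 1 to 5. Its WT-16 levels were 1.01, 3.25, 19.7, 12.5 and 2.53 CPM.

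Myl7, Myl4 and Sln summed to 1.01 to 220.1 CPM in WT-16 libraries, 1.603 to 167.5 in those of KO-16, 0.770 to 6.41 in WT-8 and 1.09 to 2.36 in KO-8. The whole list of 14 atrial markers summed to 211 to 547 CPM in WT-16 libraries, 145 to 706 in those of KO-16, 251 to 280.5 in WT-8 and 202 to 248 in KO-8. The list includes the potassium channel genes Kcnj3, Kcnj5 and Kcnk3, which the ventricle also expresses. In KO-16 replicate 4, with the highest sum, Bmp10 (348.5 CPM) and Myl4 (103 CPM) were above Kcnj3 (54.2 CPM), while in KO-16 replicate 2 Kcnj3 had 36.9 CPM and Myl4 1.14 CPM. Of the 14, 11 were tested at 16 weeks and 0 passed in edgeR's quasi-likelihood test. At 8 weeks 10 were tested, Dkk3 was higher (log2 fold change 0.84, SE 0.24, adjusted p = 0.0415), and Kcnj3 (-0.38, SE 0.08, adjusted p = 0.0088) and Kcnj5 (-0.24, SE 0.07, adjusted p = 0.0367) were lower. Bmp10, a growth factor of right atrial muscle, had 348.5 CPM in KO-16 replicate 4 and 26.8 CPM in WT-16 replicate 4, and at most 0.28 CPM elsewhere. The ventricular light chain Myl2 had 3338 to 5022 CPM in all libraries.

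In a comparison chosen after the data were seen, the 5 libraries with more Myl7 than any 8-week library were left out (replicates 3 and 4 of WT-16, and 1, 4 and 5 of KO-16). Nppa then had a larger log2 fold change, 5.77 (SE 0.24, edgeR's quasi-likelihood test, adjusted p = 6.83e-08), and so did Nppb, 3.92 (SE 0.30, adjusted p = 9.7e-06). Only 3 WT-16 and 2 KO-16 libraries remain there, and the omission takes out the highest WT-16 library for Nppa and both of the lowest KO-16 libraries. The 18S share was 39.1%, 25.2% and 29.7% in the remaining WT-16 replicates 1, 2 and 5. It was 1.71% and 5.66% in KO-16 replicates 2 and 3, so genotype cannot be told apart from 18S content in this comparison. WT-16 replicate 5 is also male. The part of atrial RNA in the levels of replicates 1, 4 and 5 of KO-16 was not tested. In bulk tissue, fewer cells of a type and less RNA per cell cannot be told apart.

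**Figure D2:**
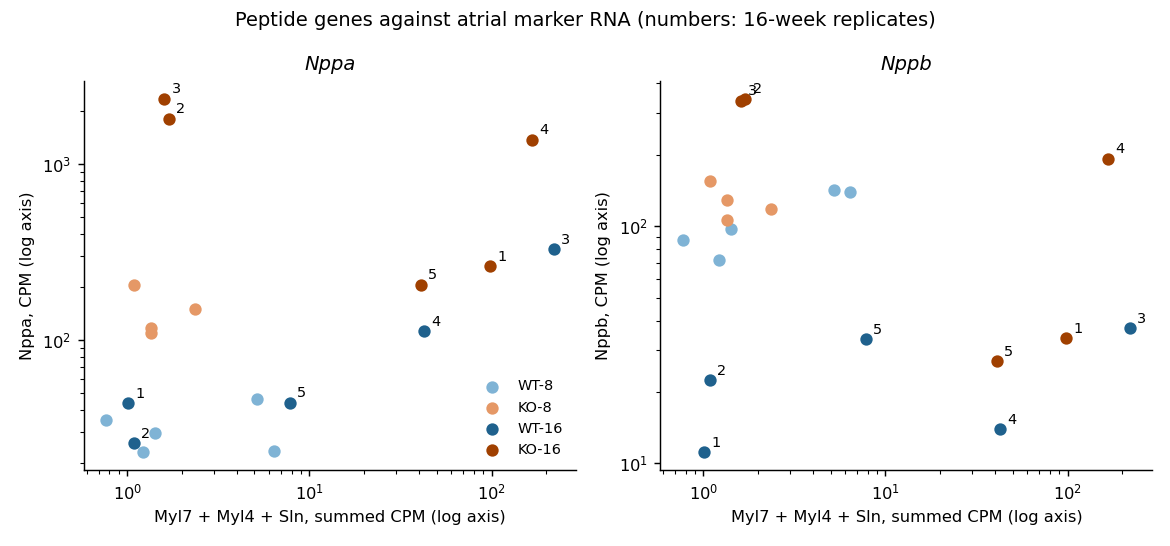
Nppa (left) and Nppb (right) in CPM against the summed CPM of Myl7, Myl4 and Sln, both on logarithmic axes. Each point is a library coloured by group, and numbers give the 16-week replicates. Replicates 2 and 3 of KO-16 have the highest levels of both peptide genes with low sums of these markers. Replicate 3 of WT-16, with the highest sum, has 329 CPM of Nppa.

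Remaining Mpc1 and 18S content were read beside the peptide genes in KO-16. Replicates 2 and 3 had the lowest Mpc1 levels, 9.03 and 9.25 CPM, and replicate 1, with 26.2 CPM, had the most Mpc1 left and 264 CPM of Nppa. Replicates 4 and 5 had similar Mpc1 levels, 15.1 and 15.9 CPM, and 1374 and 207 CPM of Nppa. Replicates 2 and 3 also had the smallest 18S shares of KO-16, 1.71% and 5.66%, against 12.7% in replicate 1, 30.0% in replicate 4 and 26.1% in replicate 5, so the order of the other 3 libraries by 18S share was not that by Nppa. WT-16 replicate 3 had the smallest 18S share of its group, 6.88%. With the 18S share as a covariate none of the 8 genes passed in edgeR: Nppa then stood at 3.03 (log2 fold change, SE 0.64, adjusted p = 0.0691) and Nppb at 2.33 (SE 0.59, adjusted p = 0.101). With sex as a covariate Nppb passed and Nppa did not (3.499, SE 0.84, adjusted p = 0.0519). The part of the remaining Mpc1 in the peptide levels was not tested.

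No receptor gene passed the test at either time. Npr1 levels were 6.66 to 10.2 CPM in WT-16 libraries, 5.64 to 9.56 in those of KO-16, 9.04 to 10.5 in WT-8 and 7.76 to 10.96 in KO-8. Its log2 fold changes were -0.10 at 16 weeks (SE 0.18, edgeR's quasi-likelihood test, adjusted p = 0.75) and -0.05 at 8 weeks (SE 0.09, adjusted p = 0.798). Groups overlapped at both times.

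Npr2 ran from 18.5 to 24.8 CPM in WT-16 libraries, 17.3 to 25.9 in those of KO-16, 24.95 to 27.96 in WT-8 and 25.96 to 30.8 in KO-8. The log2 fold changes were 0.08 at 16 weeks (SE 0.14, edgeR's quasi-likelihood test, adjusted p = 0.75) and 0.10 at 8 weeks (SE 0.06, adjusted p = 0.36). For this cyclase too the groups overlapped at both times.

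Npr3, the clearance receptor, varied most among the receptors. Its WT-16 levels were 33.35, 29.98, 38.5, 50.4 and 38.4 CPM. The KO-16 levels were 34.6, 42.1, 40.3, 104.6 and 70.7 CPM. Only replicates 4 and 5 of KO-16 lay above WT-16. The log2 fold change of 0.61 did not pass (SE 0.27, edgeR's quasi-likelihood test, adjusted p = 0.182) and was 0.29 without KO-16 replicate 4. That library, which is male, also had the most Bmp10 and, with 87.7 CPM, the most Vwf, a gene of endocardial and other endothelial cells. The 7 endocardial markers other than Npr3 itself summed to 217 CPM in it, against 98.8 to 141.6 in WT-16 and 102 to 174 in the remaining KO-16 libraries. None of those 7 passed at either time, and their part in the Npr3 level was not tested.

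At 8 weeks Npr3 had 18.8, 17.8, 18.7, 18.8 and 20.55 CPM in WT-8 and 22.5, 17.4, 20.5 and 20.75 CPM in KO-8. These groups overlapped (log2 fold change 0.11, SE 0.07, edgeR's quasi-likelihood test, adjusted p = 0.401). Every 16-week library, WT or KO, was above every 8-week one, a difference that has the same limits as that of Nppb between times.

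Per kilobase of exon, Npr2 gave 58.2% of the receptor RNA on average in WT-8 and 59.3% in KO-8, and 43.5% in WT-16 and 38.3% in KO-16. Npr3 gave 20.6% and 21.2% at 8 weeks and 39.7% and 48.2% at 16 weeks in WT and KO. Npr1 gave 21.2%, 19.5%, 16.8% and 13.5% in WT-8, KO-8, WT-16 and KO-16. Within each time the ranges of WT and KO overlapped for all 3 receptors. The ratio of Npr3 to Npr1 ran from 1.88 to 2.97 in WT-16 libraries and from 2.24 to 6.82 in those of KO-16, with replicates 4 and 5 of KO-16, at 6.82 and 6.38, above all others.

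**Figure D3:**
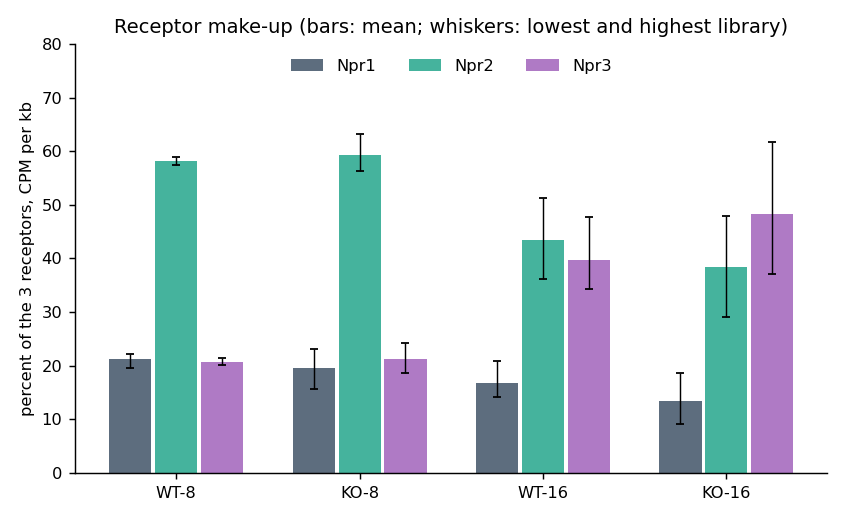
Share of each receptor in the summed CPM per kilobase of Npr1, Npr2 and Npr3, by group, in percent. Bars are means over libraries, and whiskers run from the lowest to the highest library. Npr2 has the largest mean share in WT-8 (58.2%), KO-8 and WT-16, and Npr3 in KO-16 (48.2%), and their ranges overlap in both 16-week groups.

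Corin was the protease gene that passed, with lower levels in KO-16. Its WT-16 levels were 181, 183, 211, 207 and 278 CPM. The KO-16 levels were 149.8, 63.65, 108, 143 and 122 CPM. Every KO-16 library lay below every WT-16 library, which held for no other member. Of all genes tested at 16 weeks, 4.68% had groups without overlap, 2.12% with KO higher and 2.56% with KO lower. The means were 212 ± 39.2 and 117 ± 34.2 CPM (SD, n = 5 each), which gave a log2 fold change of -0.85 (SE 0.20, 1.81-fold lower, edgeR's quasi-likelihood test, adjusted p = 0.0429). The call was lost without any 1 of the 7 libraries named for Nppa or WT-16 replicate 3 (-0.70 to -0.93, adjusted p from 0.0637 to 0.113), and with the 18S covariate (-0.70, adjusted p = 0.103).

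In WT-8 Corin had 126, 159, 165, 190.1 and 243 CPM, and in KO-8 135, 135, 55.8 and 184 CPM. Replicate 3 of KO-8 was below all WT-8 libraries and the other 3 lay within their range. The log2 fold change of -0.46 did not pass (SE 0.25, edgeR's quasi-likelihood test, adjusted p = 0.294). It was -0.22 without that library (SE 0.17). Without the low-count filter it passed (-0.47, adjusted p = 0.00234). The effect at 16 weeks was -0.39 relative to that at 8 weeks (SE 0.36, adjusted p = 0.647).

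For Furin the WT-16 libraries had 22.2, 23.7, 18.5, 24.8 and 30.55 CPM, and the KO-16 libraries 19.5, 18.1, 21.95, 24.3 and 11.3 CPM. These groups overlapped, with a log2 fold change of -0.31 (SE 0.19, edgeR's quasi-likelihood test, adjusted p = 0.313). At 8 weeks it had 35.4, 35.8, 32.1, 38.75 and 39.02 CPM in WT-8 and 26.6, 33.8, 26.6 and 32.0 CPM in KO-8. Only KO-8 replicate 2 reached into the WT-8 range. The log2 fold change of -0.27 missed the threshold (SE 0.08, edgeR's quasi-likelihood test, adjusted p = 0.0552). It passed with DESeq2 (adjusted p = 0.0307), without the low-count filter (0.00634), without WT-8 replicate 3 (-0.31, adjusted p = 0.04) and without KO-8 replicate 2 (-0.34, adjusted p = 0.0254).

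Mme was low in 3 of the KO-16 libraries. Its WT-16 levels were 13.1, 9.03, 10.7, 12.8 and 9.42 CPM, against KO-16 levels of 8.69, 5.30, 1.85, 3.295 and 10.5 CPM. All KO-16 libraries but replicate 5 were below WT-16, and replicates 2, 3 and 4, those with the highest Nppa, were lowest. The log2 fold change of -0.93 did not pass in the fit to these 10 libraries (SE 0.36, edgeR's quasi-likelihood test, adjusted p = 0.135). It passed in the fit to all 19 (adjusted p = 0.0269), with quality weights in limma-voom (-1.42, adjusted p = 0.00761), and in edgeR without KO-16 replicate 5 (-1.18, adjusted p = 0.0393). At 8 weeks Mme had 7.67 to 10.5 CPM in WT-8 and 6.85 to 9.41 CPM in KO-8 (-0.08, SE 0.11, edgeR's quasi-likelihood test, adjusted p = 0.723).

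In both KO groups a library with the most peptide RNA was also lowest for Corin or Mme. In KO-16, replicates 2 and 3 had the most Nppa and Nppb and the least Corin, and replicate 3 had the least Mme. In KO-8, replicate 3 had the most Nppa and Nppb and the least Corin and Mme. The WT groups did not show this for Corin. WT-16 replicate 3, with the most Nppa and Nppb, had 211 CPM of Corin, the second highest of its group. Its 10.7 CPM of Mme was the middle value. WT-8 replicate 3, also with the most Nppa and Nppb, had the middle value of Corin, 165 CPM. Its Mme level, 7.671 CPM, was next to the lowest, 7.667 CPM. Both of these WT libraries had the least Furin of their group, 18.5 CPM in WT-16 and 32.1 CPM in WT-8. In KO-16 the least Furin was in replicate 5. In KO-8 it was in replicate 1, with 26.56 CPM against 26.57 CPM in replicate 3. With 4 or 5 libraries a group, this is a description of those libraries.

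**Figure D4:**
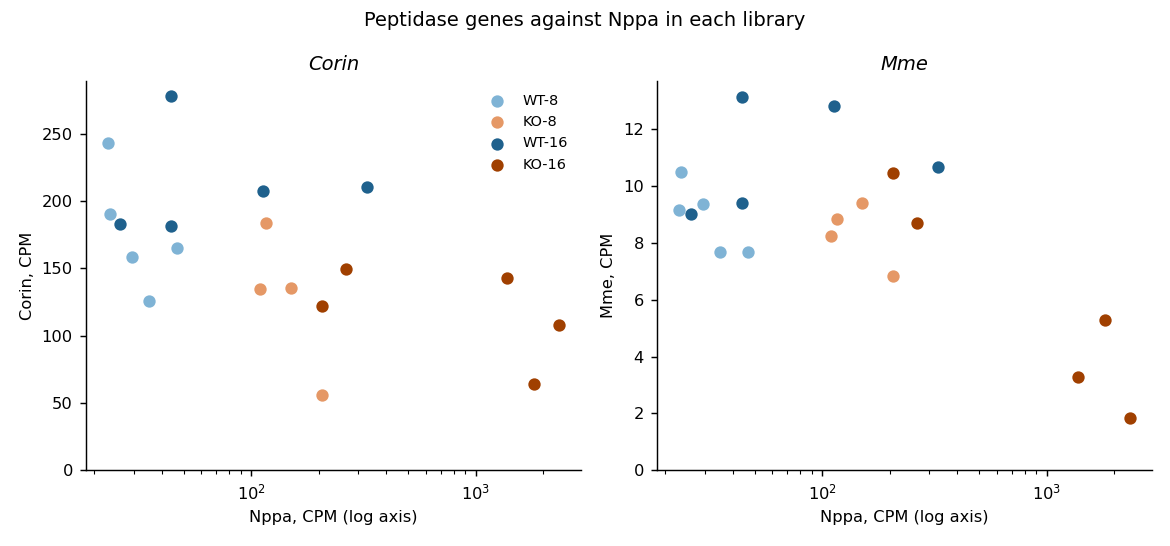
Corin (left) and Mme (right) in CPM against Nppa in CPM on a logarithmic axis, with 1 point per library coloured by group. The KO-16 libraries with 1374 to 2349 CPM of Nppa have 63.65 to 143 CPM of Corin and 1.85 to 5.30 CPM of Mme, under all 5 WT-16 libraries in both genes.

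Across the 8 genes, 3 passed at 16 weeks (Nppa and Nppb higher, Corin lower), where 2.83% of all genes tested did, 1.88% higher and 0.945% lower. The median log2 fold change of the 8 was -0.01 at 16 weeks and 0.02 at 8 weeks, and that of all genes tested was 0.01 and 0.00. In the fit to all 19 libraries, which called 20.5% of genes at 16 weeks and 0.2% at 8 weeks, 4 of the 8 passed at 16 weeks (Mme in addition) and 0 at 8 weeks. Ordered by mean CPM per kilobase, KO-16 had Nppa (1389) and Nppb (239.6) first, Corin (21.7), Npr3 (6.23) and Npr2 (4.59) next, and Furin (2.07), Npr1 (1.59) and Mme (0.513) last. Neighbours overlapped in their library ranges for Nppa and Nppb, for Npr3 and Npr2, and for Furin and Npr1. In WT-8 the order was Nppb (138), Nppa (36.5), Corin (32.7), Npr2 (5.69), Furin (3.945), Npr1 (2.07), Npr3 (2.015) and Mme (0.769), with overlap between Nppa and Corin and between Npr1 and Npr3.

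**Figure D5:**
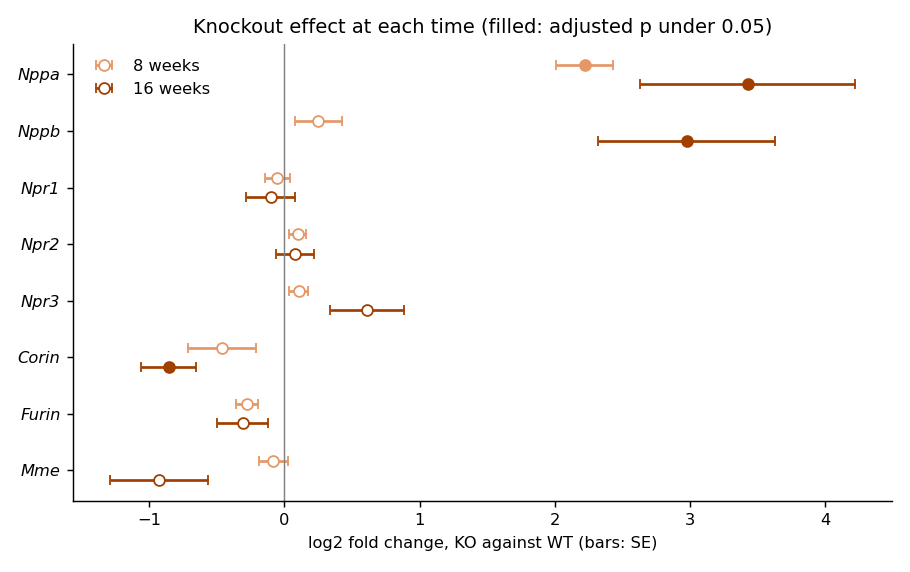
Log2 fold change of KO against WT for each gene at 8 and 16 weeks, with the SE as bars. Filled points passed an adjusted p of 0.05. Nppa is filled at both times, Nppb and Corin at 16 weeks, and the receptor genes at neither.

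Further genes of the system were read from lists of the pathway. Among other ligands, Nppc, which encodes the C-type peptide, had counts in 2 of 19 libraries (at most 3), and Ostn, whose product binds the clearance receptor, in 7 (at most 2). Neither could be tested. Of 14 convertases, granule proteins and peptidases, 9 were tested at 16 weeks and 3 were higher and 0 lower in KO. They were Pam, an amidating enzyme abundant in atrial granules (452 ± 107 to 880 ± 268 CPM, log2 fold change 0.96, SE 0.22, edgeR's quasi-likelihood test, adjusted p = 0.037), the convertase gene Pcsk5 (1.14, SE 0.25, adjusted p = 0.0358) and Ace, angiotensin-converting enzyme (1.47, SE 0.34, adjusted p = 0.0408). Over the 9 genes the median log2 fold change was 0.13. Among all genes tested at 16 weeks, 1.88% passed as higher and 0.945% as lower in KO.

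At 8 weeks 10 of those 14 were tested, with 2 higher and 2 lower in KO and a median of 0.02. Among all genes tested at 8 weeks, 4.3% passed as higher and 3.91% as lower. Ace was higher (24.3 ± 1.94 to 36.3 ± 5.84 CPM, log2 fold change 0.59, SE 0.10, edgeR's quasi-likelihood test, adjusted p = 0.00224). So was the convertase gene Pcsk1, at 0.268 ± 0.169 CPM in WT-8 and 0.91 ± 0.296 in KO-8 (1.82, SE 0.37, adjusted p = 0.00826). Ide, insulin-degrading enzyme, which also cleaves natriuretic peptides, was lower (126 ± 19.2 to 72.7 ± 4.997 CPM, -0.78, SE 0.09, adjusted p = 0.000271), as was the peptidase gene Dpp4 (-0.40, SE 0.12, adjusted p = 0.0482). The log2 fold change of Ide at 16 weeks was -0.20 (SE 0.21, adjusted p = 0.573).

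Downstream of the receptors, 15 of 16 genes of cyclic GMP signalling were tested at each time. Prkg1, the kinase that cyclic GMP activates, was higher at both: 23.2 ± 3.80 to 39.3 ± 7.77 CPM at 8 weeks (log2 fold change 0.77, SE 0.13, edgeR's quasi-likelihood test, adjusted p = 0.00233) and 29.96 ± 2.565 to 53.1 ± 8.27 CPM at 16 weeks (0.83, SE 0.12, adjusted p = 0.00823). KO libraries did not overlap WT libraries in Prkg1 at either time, as in 10.9% of all genes tested at 8 weeks and 4.68% at 16 weeks. Prkg1 ends at 31765033 on chromosome 19, and A1cf, on the same chromosome, starts at 31868764. A1cf had 3.05 to 6.64 CPM in the KO libraries, 2.25 CPM in WT-8 replicate 1 and 0 CPM in the other WT libraries. That WT library, with 1313 CPM of Esr1, had the most Prkg1 of WT-8, 29.4 CPM. The part of this region in the Prkg1 level was not tested. Pde1a, a phosphodiesterase, was higher at 8 weeks (0.45, SE 0.11, adjusted p = 0.0195), and the remaining 13 passed at neither time. The median log2 fold change of the list was 0.20 at 16 weeks and 0.14 at 8 weeks. Of all genes tested, 2.83% passed at 16 weeks and 8.21% at 8 weeks.

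Smooth muscle and pericytes are also known to express Prkg1. Of 9 markers of these cells Tagln was higher at 16 weeks (1.47, SE 0.31, edgeR's quasi-likelihood test, adjusted p = 0.0321), and at 8 weeks 4 were higher and 1 lower. Their summed level was 1005 to 1465 CPM in KO-16 and 1313 to 1592 in WT-16, and 1099 to 1361 in KO-8 and 1171 to 1198 in WT-8. Much of that sum was Abcc9, which averaged 629 ± 96.5 CPM over WT-16 libraries and 316 ± 146 over those of KO-16 (-0.99, SE 0.26, adjusted p = 0.0533, n = 5 each) and was the 1 lower at 8 weeks. The median log2 fold change of the 9 markers was 0.55 at 16 weeks and 0.36 at 8 weeks. Endothelial cells carry Npr1, Ace and Npr3, and 1 of 10 of their markers was higher at 16 weeks (Tie1, 0.69, SE 0.15, adjusted p = 0.0356) and 3 at 8 weeks (Cdh5, Egfl7 and Pecam1). They summed to 596 to 687 CPM in WT-16 libraries and 690.3 to 948 in those of KO-16, and to 719 to 767.5 in WT-8 and 784 to 863 in KO-8. Of 10 fibroblast markers, 2 of the 9 tested were higher at 16 weeks (Pi16 and Mfap5) and 4 at 8 weeks, with sums of 717 to 995 CPM in WT-16 libraries, 947 to 1565 in those of KO-16, 1139 to 1214 in WT-8 and 1118 to 1677 in KO-8. Ventricular and conduction markers did not pass at either time, and of the leukocyte markers 1 was lower at 8 weeks and 0 passed at 16 weeks. Of 6 erythroid markers, 2 were lower at 8 weeks, and 0 of the 5 tested passed at 16 weeks, where their median log2 fold change was 1.78. Erythroid sums were 110.3, 213.7, 1145, 577 and 51.8 CPM in KO-16 replicates 1 to 5 and 58.1 to 137.5 CPM in WT-16, so that the 3 KO-16 libraries with the most Nppa had the highest sums. At 8 weeks they were 434 to 964 CPM in WT-8 and 258 to 572 in KO-8. Of all genes tested, 1.88% passed as higher and 0.945% as lower at 16 weeks, and 4.3% and 3.91% at 8 weeks. The part of these cell types in the peptide and pathway genes was not tested.

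Of 14 transcription factors known to act on the Nppa and Nppb promoters, all were tested and 0 passed at 16 weeks in edgeR's quasi-likelihood test, with a median log2 fold change of -0.10. At 8 weeks Tbx20 was higher (121 ± 5.02 to 151 ± 14.5 CPM, with a log2 fold change of 0.33 and SE of 0.07, adjusted p = 0.00673) and Hand2 lower (27.9 ± 3.92 to 17.7 ± 1.99 CPM, -0.64, SE 0.10, adjusted p = 0.00184). The list's median was -0.02, and of all genes tested at 8 weeks 4.3% passed as higher and 3.91% as lower. The GATA factors, whose motif is marked in the promoters, had values of opposite sign at 16 weeks. Gata4 averaged 28.7 ± 4.61 CPM over WT-16 libraries and 41.8 ± 11.5 over those of KO-16 (0.56, SE 0.18, adjusted p = 0.0883, n = 5 each). Gata6 averaged 57.7 ± 6.89 and 35.5 ± 12.2 CPM (-0.71, SE 0.21, adjusted p = 0.0725, n = 5 each). For the other marked motifs, Nkx2-5 had 0.82 (SE 0.31, adjusted p = 0.125) and Tead1, a TEAD factor, -0.21 (SE 0.16, adjusted p = 0.414). Tbx5 (-0.89, SE 0.29, adjusted p = 0.091) was the 1 of the 14 factors whose 16-week groups did not overlap, as in 4.68% of all genes tested.

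Of the genes within 50 kb of the peptide genes, 3 with enough counts are given here, and none of them passed at 16 weeks: Plod1, a lysyl hydroxylase, had a fold change of 0.67 on the log2 scale (SE 0.21, edgeR's quasi-likelihood test, adjusted p = 0.0851), 2510039O18Rik of 0.35 (SE 0.18, adjusted p = 0.229) and Clcn6, a chloride transporter, of 0.28 (SE 0.21, adjusted p = 0.401). At 8 weeks Plod1, 2510039O18Rik and Clcn6 had values of 0.14, 0.07 and -0.07, and none passed. Gm13054, which overlaps Nppa on the opposite strand, had at most 6 counts in a library, in counts that took strand into account, and Gm13207 had 1 count in all.

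The genes whose levels followed the peptide genes most closely at 16 weeks were ranked by Pearson's r of log2 CPM after removal of group means, over 10 libraries. Genes with a predicted or clone name were left out of the ranking. For Nppa they were Arrb1 (r = 0.946), Tgfb3 (0.941), Cdc42 (0.939), Rnf185 (0.939) and Tstd2 (0.938). In the 9 libraries of 8 weeks the same 5 had r of -0.60, 0.50, 0.89, 0.21 and -0.08 with Nppa. For Nppb they were Ankrd23 (r = 0.977), a stretch-related ankyrin repeat protein of muscle, Mical2 (0.965), Emp1 (0.962), Fbxo40 (0.962) and Ppp1r9b (0.96), with r of 0.74, 0.33, 0.72, 0.37 and 0.78 at 8 weeks. These coefficients describe libraries that differ in depth (8.63 to 26.9 M counts) and in 18S content (1.71% to 39.1%). The part of depth and 18S content in the coefficients was not tested. The coefficients are also the largest of many genes ranked. Ankrd23 itself was higher in KO-16, from 39.8 ± 7.06 to 104 ± 49.3 CPM (n = 5 each; log2 difference 1.39, SE 0.29, edgeR's quasi-likelihood test, adjusted p = 0.0308) and no overlap between the groups. Its log2 fold change at 8 weeks was 0.17 (SE 0.10, edgeR's quasi-likelihood test, adjusted p = 0.377). Groups without overlap were seen in 4.68% of all genes tested at 16 weeks.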

How the data were processed

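The files hold gene counts deposited by the authors. Per the file headers these came from featureCounts 1.6.3, with read pairs counted by strand on GRCm38 with Ensembl 96. Further tools in the submitters' processing notes, with no order, are STAR, RSEM, cutadapt 1.16, SAMtools and FastQC. Each 16-week sample had 2 files, and their counts were summed. Between files of 1 sample the chi-square per gene was 1.34 to 3.15, while between libraries of 1 group it was 6.305 or more. Symbols were found for 55450 of 55536 genes.

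CPM are counts over the library total times the TMM factor. KO and WT were compared with edgeR 4.0.16 (TMM, filterByExpr, quasi-likelihood, Benjamini-Hochberg over all genes tested, threshold 0.05) in R 4.3.3. Each time was fitted alone, because the common coefficient of variation was 0.228 at 16 and 0.093 at 8 weeks (0.171 over all 19 libraries). The difference between the times was fitted to all 19. Each SE was obtained by dividing the size of the log2 fold change by the root of F. Log2 CPM for the ranking of similar genes had a prior count of 2. The ranking covered genes with a mean of at least 1 CPM and a symbol that was not a predicted or clone name.

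All 8 genes are named, with all passing members of the pathway lists (at most 4 a time), markers with the smallest adjusted p, genes within 50 kb and the 5 most similar genes. The 16-week values of Gata4, Gata6, Nkx2-5, Tead1, Tbx5, Abcc9 and Dkk3 were chosen after the data were seen. Not every atrial marker is named. Some genes that the rule selects are left out of the text. The members and lists were chosen with earlier results of these data known. Alternatives were RLE factors, no low-count filter, DESeq2 1.42.0, limma 3.58.1 voom with and without quality weights, a fit to all 19 libraries, the 18S gene left out or its share or sex as a covariate, the earlier or later 16-week files alone, and each library left out. Leaving out both male libraries or the atrial-marker libraries was added after the data were seen. The fits were also run on simulated counts with known changes, and the outcome is not given here. Those counts held no differences in 18S content, sex or atrial RNA between libraries, so the run cannot speak to their part in the calls. Tables and figures used Python 3.11.15, numpy 2.4.6, pandas 2.3.3 and matplotlib 3.10.9. Promoter windows came from RefSeq (GRCm38.p6), in which all 8 genes had an entry. Raw reads were not used here.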

Additional observations from a re-analysis of the deposited data

Results flagged for a closer look

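Each of the 8 genes was checked in each of the 4 groups for a library far from the others (32 groups in all, where chance marks about 1 in 20). Nppa in WT-16 had a library far above the rest, replicate 3 with 329 CPM against 26 to 112 CPM, and that library also had the most Myl7 of all. Npr2 in WT-16 had replicate 1 at 24.8 CPM against 18.5 to 20.2 CPM, in the library with the largest 18S share, 39.1%.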

How the results depend on the processing

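No paired analysis was possible because the labels give the groups no shared replicate numbers. At 16 weeks the 3 members called became 0 with the 18S share as covariate and with both male libraries left out, and 0 to 4 with 1 library left out. The 356 genes called became 1034 without a low-count filter, 1155 with DESeq2, 2514 in voom with quality weights, 3180 in the fit to all 19 libraries, 35 with the 18S covariate, 10 without male libraries, 3401 without the atrial-marker libraries and 29 to 1854 with 1 library left out. The share of them that was higher in KO, 66.6%, was 54.4% with DESeq2, 31.9% with voom, 47.6% with quality weights, 54.6% in the fit to all 19, 77.1% with the 18S covariate and 49.9% without the atrial-marker libraries. At 8 weeks the 1 member called became 3 without a filter, 2 with DESeq2, 0 in the fit to all 19 (31 genes against 1245) and 1 to 2 with 1 library left out. Fits with libraries left out rest on fewer of them, and otherwise the cause was not tested. The 0 members with a different effect at both times became 1 without a filter, 2 with quality weights, 3 without the atrial-marker libraries (Nppa, Nppb and Mme) and 0 to 1 with 1 library left out.

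Changes of sign occurred only for Npr1, Npr2 and Furin, in results whose main value lay between -0.10 and 0.08. With 1 library left out, Npr1 ran from -0.206 to 0.0116 at 16 weeks and from -0.13 to 0.0399 at 8 weeks, and Npr2 from -0.00136 to 0.147 at 16 weeks. The difference between times ran from -0.164 to 0.0774 for Npr1, from -0.088 to 0.0593 for Npr2 and from -0.113 to 0.103 for Furin. For Npr2 and Furin that difference was 0.0248 and 0.0191 without a filter, 0.0145 and 0.0391 with voom, 0.0731 and 0.072 with quality weights and 0.0534 and 0.0327 in the later 16-week files, where that of Npr1 was 0.00369. Without the atrial-marker libraries Npr1 had 0.273 at 16 weeks and a difference of 0.357, against main values of -0.10 and -0.05. A floor of 3 counts was 0.0777 to 0.758 CPM, which limits Myl7 and Sln at 0 more than any member.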
